A study of Mus musculus with 15 samples.

Results

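Endothelial cells line every blood vessel of the kidney, and their identity is carried by a set of genes for surface receptors, junction proteins and transcription factors. This account follows 32 such genes, chosen by name from a list of endothelial identity genes, out of 23284 genes in a kidney RNA sequencing table. All kidneys were from wild-type (WT) mice and were taken at 2 h, with 5 libraries each for vehicle, L-ala (L-alanine) and D-ala (D-alanine), the mirror-image forms of one amino acid. The sources used here give no dose, route, vehicle make-up or age, and matched doses are not assumed. The labels do not say that the libraries came from separate animals, so each p-value measures the spread between these libraries, which may in part be technical.

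Vascular endothelial growth factor (VEGF), made by podocytes and tubule cells, acts on the endothelial receptors encoded by Kdr and Flt1, while angiopoietins act on the Tie2 receptor encoded by Tek. VE-cadherin (Cdh5) and PECAM1 hold endothelial cells together, and transcription factors of the ETS family (Erg, Ets1) and the SOXF family (Sox7, Sox17, Sox18) drive many of these genes. The kidney holds specialised beds: fenestrated glomerular capillaries that filter blood, and peritubular capillaries around the tubules.

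Levels are FPKM, read fragments corrected for how long each transcript is and how deep each library, so they can be set side by side between genes. Of the 32 genes, 30 reached 1 FPKM in at least 5 libraries and were tested, while Sox7 and Vwf did not. None of the 32 was listed at 0 in any library, and the 6 genes taken as endothelial markers, Pecam1, Cdh5, Kdr, Emcn, Tie1 and Esam, were all detected. In vehicle kidneys the highest level was that of Igfbp3, which encodes a binding protein for insulin-like growth factors, at 106 ± 22.5 FPKM (SD, n = 5). It was followed by Plvap at 59.5 ± 13.8, Emcn at 44.8 ± 9.10 and Egfl7 at 41.1 ± 5.68 FPKM. Igfbp3 stood above Plvap by more than their SDs added together, while Plvap and Emcn, and Emcn and Egfl7, differed by less than that. At the other end stood Nos3 at 1.63 ± 0.146, Sox7 at 0.739 ± 0.258 and Vwf at 0.289 ± 0.0790 FPKM.

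Each library held an estimated 7.57 M to 10.9 M reads over all genes. Libraries of a group differed in the endothelial genes as a whole. Vehicle replicate 2 was the lowest of its group for 25 of the 30 tested genes and L-ala replicate 5 for 24, while L-ala replicate 3 was the highest of its group for 26. The summed level of the 32 genes ran from 312 to 489 FPKM in vehicle, 233 to 499 in L-ala and 277 to 358 in D-ala libraries. These sums overlap between all 3 groups, but they weigh the highest genes most. Igfbp3 alone averaged 106 FPKM in vehicle and in L-ala. Each gene was also set against its own 15-library mean as log2(FPKM + 1), and the median over the 30 tested genes was taken. That median ran from -0.0464 to 0.425 in vehicle, -0.494 to 0.235 in L-ala and -0.258 to 0.0415 in D-ala libraries, with vehicle replicate 2 the lowest of vehicle. In whole-kidney RNA, fewer endothelial cells and less RNA per endothelial cell cannot be told apart.

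Under L-ala, 12 of the 30 tested genes fell against vehicle and 0 rose (limma, Benjamini-Hochberg adjusted p under 0.05 over all 11781 genes tested). Of all genes tested, 4.53% fell and 6.48% rose. The 12 were Sox18, Erg, Kdr, Flt1, Tek, Clec14a, Pecam1, Cd34, Ptprb, Cdh5, Mmrn2 and Robo4. At an unadjusted p under 0.05, 17 of the 30 were lower and 0 higher, beside 13.5% of all genes lower and 17% higher. For 4 of the called genes, Cdh5, Robo4, Sox18 and Clec14a, the L-ala libraries were all below the vehicle libraries, beside 3.23% of all genes tested. The fold change was below 0 for 26 of the 30, beside 48.5% of all genes, and its median was -0.378 on the log2(FPKM + 1) scale, beside 0.00701 for all genes. This scale is used for every fold change here and understates the change of low genes. Leaving out vehicle replicate 4 lowered the count to 5, and leaving out L-ala replicate 3 raised it to 15. Of all 11781 genes, 147 and 376 then fell, against 534 with all libraries kept.

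Under D-ala, 7 of the 30 fell against the same vehicle libraries and 0 rose, which is 23.3% beside 4.92% of all genes tested that fell and 6.53% that rose. The 7 were Plvap, Tek, Sox18, Erg, Cd34, Pecam1 and Clec14a. At an unadjusted p under 0.05, 16 of the 30 were lower and 0 higher, beside 12.6% of all genes lower and 13.9% higher. The D-ala libraries were all below the vehicle libraries for 2 genes, Plvap and Cd34, beside 4.76% of all genes tested. The fold change was below 0 for 29 of the 30, beside 49.6% of all genes, with Ehd3 the exception, and its median was -0.355 beside 0.00111 for all genes. This count depended on single libraries. It was 1 without vehicle library 4 or 5 or D-ala library 1 or 2. In those omissions 310, 446, 364 and 392 of all 11781 genes fell, in that order, against 580 with all libraries kept. The count was 2 without vehicle replicate 1 (476 of all genes), 3 without D-ala replicate 3 (436) and 12 without vehicle replicate 2 (469). Tek alone kept its call whichever of the 15 libraries was left out.

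The 2 comparisons share their vehicle libraries. Both called 6 genes (Pecam1, Tek, Sox18, Erg, Cd34 and Clec14a), which is 6 of the 12 L-ala calls and 85.7% of the D-ala calls. In all, 13 genes were called under at least 1 isomer and 17 under neither. The matching shares over all genes tested were not counted, so this overlap cannot be called particular to the endothelial genes. With vehicle replicate 2 and L-ala replicate 5 both left out, a choice made after seeing the data, 13 genes fell under L-ala, beside 6.27% of all genes, and 14 under D-ala, beside 4.89%, Sox18 not being among the 14 (limma adjusted p = 0.0576).

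**Figure D1:**
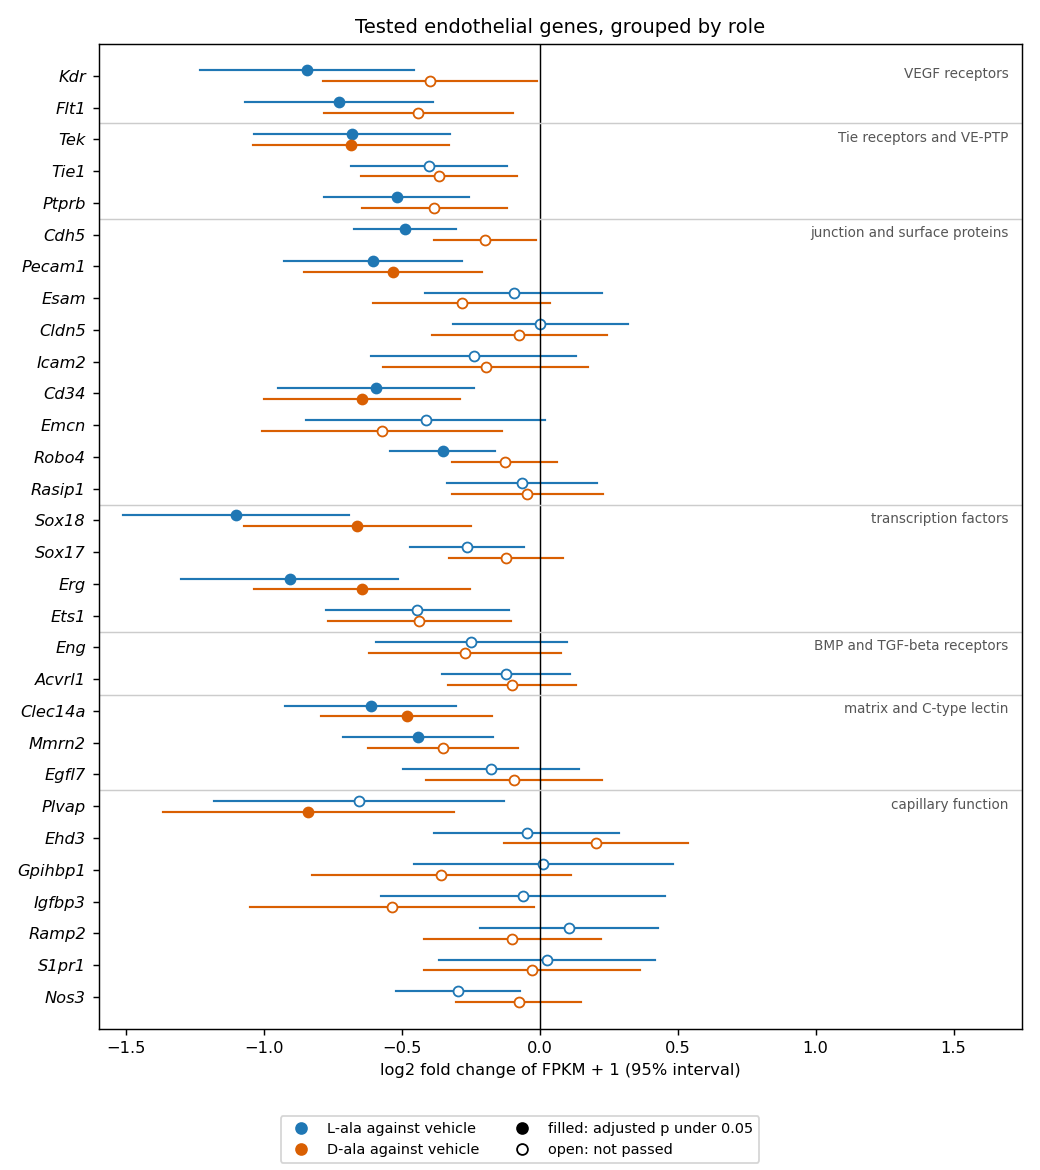
Fold changes of the 30 tested endothelial genes against vehicle on the log2(FPKM + 1) scale for L-ala and D-ala, with 95% intervals; filled points passed the test at an adjusted p under 0.05 and open points did not. All called points lie below 0, 12 for L-ala and 7 for D-ala, and Sox18 under L-ala is the lowest at -1.10.

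The VEGF receptors were called under L-ala. Kdr (chr5:75932827-75978458, minus strand, GRCm38) encodes VEGFR2, the main signalling receptor for VEGF on endothelium. It stood at 3.89, 2.42, 3.57, 4.49 and 4.57 FPKM in vehicle replicates 1 to 5, at 1.31, 1.4, 2.66, 1.97 and 1.06 FPKM in the L-ala libraries and at 2.46, 1.51, 2.47, 2.92 and 3.93 FPKM in the D-ala libraries. The L-ala libraries were below all vehicle libraries except that L-ala replicate 3 exceeded vehicle replicate 2, while the D-ala values spread across both. Kdr fell by 0.85 under L-ala (SE 0.18, limma adjusted p = 0.0136), and this held without any single library. Under D-ala the change was -0.40 (SE 0.18, limma adjusted p = 0.176), which did not pass.

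Flt1 (chr5:147561604-147726011, minus strand) encodes VEGFR1, which binds VEGF tightly and limits what reaches VEGFR2. Its levels were 3.30, 1.96, 2.67, 3.39 and 3.35 FPKM in vehicle, 1.34, 0.973, 2.41, 1.66 and 0.712 in L-ala, and 2.00, 1.35, 1.76, 2.14 and 2.18 FPKM in D-ala libraries. Vehicle replicate 2 lay inside the range of both treated groups, and 4 of the 5 L-ala libraries were below every vehicle library. Flt1 fell by 0.73 under L-ala (SE 0.16, limma adjusted p = 0.0147), again without any single library deciding it, and its change under D-ala was -0.44 (limma adjusted p = 0.0875).

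Of the VEGF and angiopoietin ligands, 7 were tested. Vegfa, the main VEGF gene, rose under D-ala from 50.7 ± 2.54 to 88.2 ± 13.6 FPKM (SD, n = 5 each), a fold change of 0.78 (SE 0.10, limma adjusted p = 1.40e-04), and stood at 47.4 ± 6.43 FPKM under L-ala. Angpt2, the antagonist of Tie2 that endothelial cells themselves release, fell under D-ala from 5.89 ± 1.22 to 3.16 ± 1.2 FPKM (-0.75, limma adjusted p = 0.0114) and stood at 3.71 ± 0.802 FPKM under L-ala (-0.55, limma adjusted p = 0.0532). Under L-ala 0 of the 7 passed limma's test, with 0 higher and 1 lower at an unadjusted p under 0.05. Among 7 co-receptors and signalling partners, Nrp2, a co-receptor for VEGF family ligands, fell under both isomers (-0.33 under L-ala, limma adjusted p = 0.0284, and -0.42 under D-ala, 0.00548). Plcg1, the phospholipase that VEGFR2 recruits, fell under L-ala (-0.43, limma adjusted p = 0.0102), and its D-ala level exceeded its L-ala level by 0.43 (limma adjusted p = 0.00657). Nck1, an adaptor protein, fell under D-ala (-0.50, limma adjusted p = 2.07e-04).

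**Figure D2:**
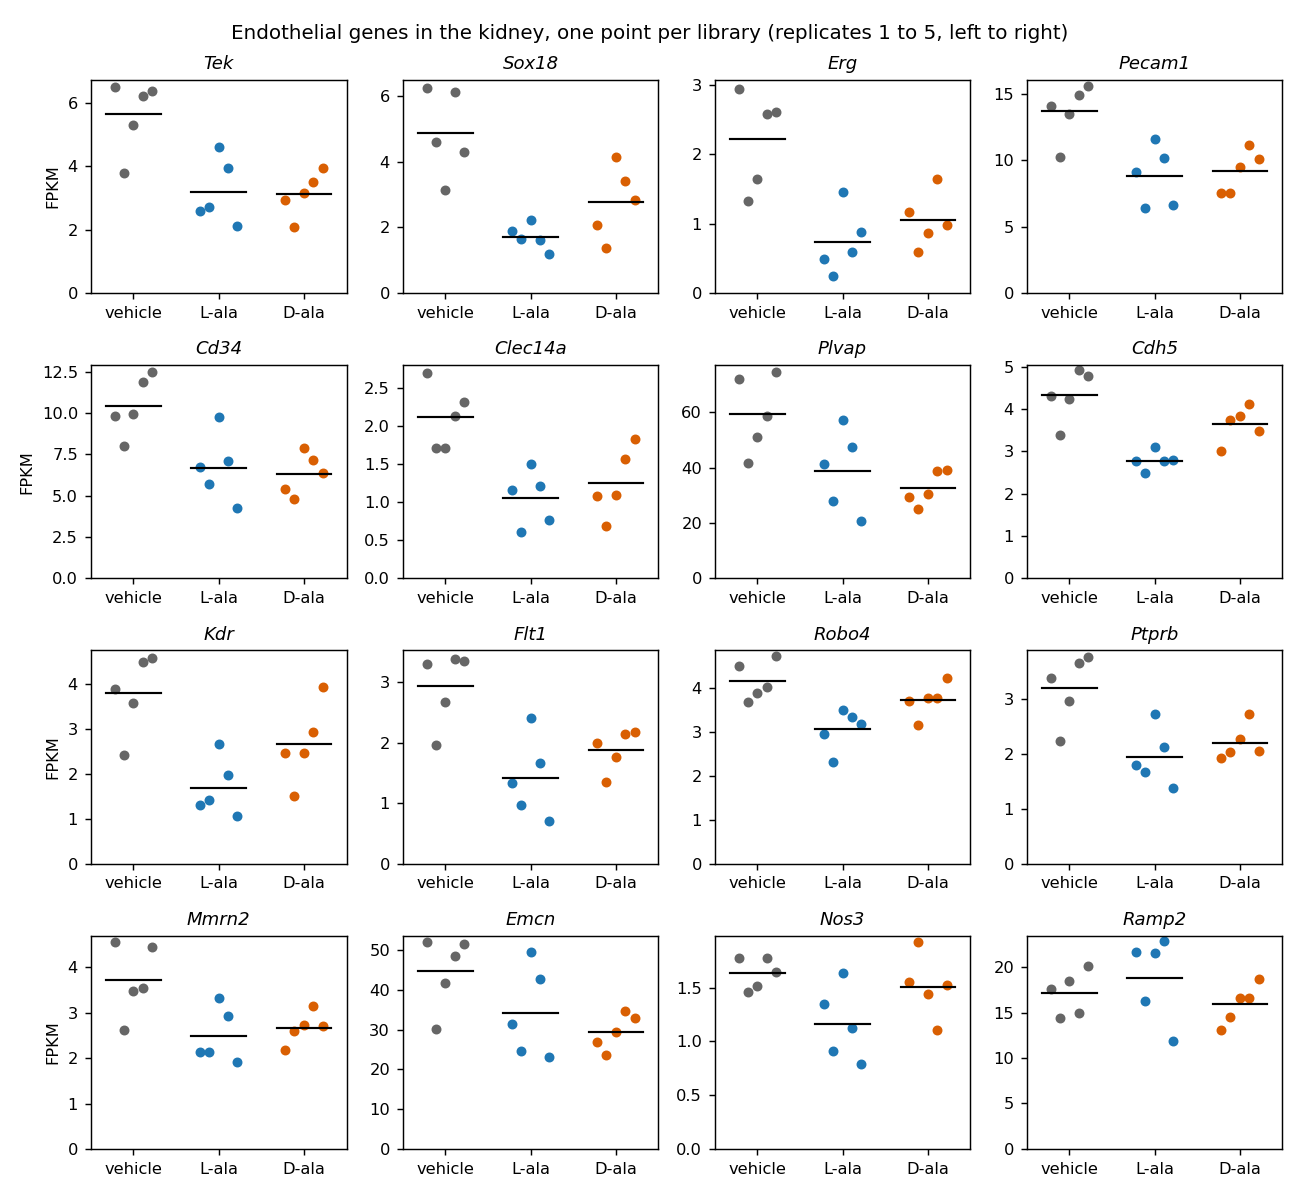
Levels of the 13 called endothelial genes and of Emcn, Nos3 and Ramp2, in FPKM, with 1 point per library and a line at the mean of the 5 libraries of each group. The L-ala libraries of Cdh5, Sox18, Robo4 and Clec14a lie below every vehicle library, while for Kdr and Pecam1 the groups overlap.

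Tek (chr4:94739289-94874976, plus strand) encodes Tie2, the angiopoietin receptor that keeps vessels quiescent. Its levels were 6.51, 3.80, 5.30, 6.20 and 6.36 FPKM in vehicle, 2.58, 2.72, 4.6, 3.93 and 2.10 in L-ala, and 2.93, 2.09, 3.14, 3.51 and 3.94 FPKM in D-ala libraries. Apart from vehicle replicate 2, every vehicle library was above every treated library. Tek was at 62.4% of vehicle under L-ala and 62.2% under D-ala on the fitted FPKM + 1 scale, with a fold change of -0.68 in each (SE 0.17, limma adjusted p = 0.0225 and 0.0148). The D-ala call held without any single library (limma adjusted p up to 0.0428), and the L-ala call was lost without vehicle library 4 (0.0678) or L-ala library 1 (0.0527).

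Ptprb encodes VE-PTP, a phosphatase that dampens Tie2 and VEGFR2. It stood at 3.39, 2.23, 2.97, 3.66 and 3.77 FPKM in vehicle, 1.80, 1.66, 2.73, 2.12 and 1.38 in L-ala, and 1.92, 2.03, 2.28, 2.73 and 2.06 FPKM in D-ala libraries. As for Tek, the overlap with vehicle came through vehicle replicate 2. Ptprb fell by 0.52 under L-ala (SE 0.12, limma adjusted p = 0.0197), a call lost without vehicle replicate 4 (0.0645), and its change under D-ala was -0.38 (0.0559). Tie1, the partner receptor of Tie2 with no ligand of its own known in the classical pathway, did not pass in either comparison (-0.40 and -0.37, limma adjusted p = 0.0606 and 0.0863).

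Of 9 genes, for junction and surface proteins and the lumen regulator Rasip1, 4 fell under L-ala and 2 under D-ala. Of all genes tested, 4.53% and 4.92% fell. Cdh5 (chr8:104101625-104144511, plus strand) encodes VE-cadherin, the adhesion protein of the endothelial adherens junction. It stood at 4.31, 3.38, 4.25, 4.92 and 4.79 FPKM in vehicle, 2.78, 2.49, 3.09, 2.77 and 2.79 in L-ala, and 3.0, 3.73, 3.84, 4.13 and 3.48 FPKM in D-ala libraries. All 5 L-ala libraries were below all 5 vehicle libraries. Cdh5 fell by 0.49 under L-ala (SE 0.09, limma adjusted p = 0.00567), with a limma adjusted p of at most 0.023 without any single library, and its change under D-ala was -0.20 (0.156).

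Pecam1 (chr11:106654217-106750628, minus strand), an adhesion receptor at endothelial contacts, stood at 14.1, 10.3, 13.5, 14.9 and 15.6 FPKM in vehicle, 9.08, 6.37, 11.6, 10.2 and 6.62 in L-ala, and 7.53, 7.54, 9.48, 11.1 and 10.1 FPKM in D-ala libraries. Only vehicle replicate 2 of its group lay within the treated ranges. It fell under both isomers, by 0.61 under L-ala and by 0.53 under D-ala (SE 0.15 in each, limma adjusted p = 0.0243 and 0.0347). The L-ala call was lost without vehicle replicate 4 (0.0713). The D-ala call was lost without any 1 of vehicle libraries 1, 3, 4 and 5 and D-ala libraries 1, 2 and 3, with limma adjusted p of 0.0545 to 0.0861.

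Cd34 (chr1:194938819-194961279, plus strand), a sialomucin of the capillary surface, stood at 9.82, 8.01, 9.98, 11.9 and 12.5 FPKM in vehicle, 6.72, 5.71, 9.75, 7.11 and 4.27 in L-ala, and 5.40, 4.78, 7.92, 7.18 and 6.40 FPKM in D-ala libraries. The D-ala libraries were all below the vehicle libraries, and L-ala replicate 3 overlapped vehicle. Cd34 fell by 0.59 under L-ala and by 0.64 under D-ala (SE 0.17 in each, limma adjusted p = 0.0362 and 0.0212). The D-ala call was lost without any 1 of vehicle libraries 4 and 5 and D-ala libraries 1 and 2 (0.0521 to 0.0603), and the L-ala call was lost in 7 of the 15 single-library omissions.

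Robo4, a guidance receptor of vessels, fell by 0.35 under L-ala from 4.17 ± 0.440 to 3.06 ± 0.464 FPKM (SD, n = 5 each, limma adjusted p = 0.0254) and stood at 3.73 ± 0.383 FPKM under D-ala (-0.13, limma adjusted p = 0.401). Its L-ala libraries, 2.96, 2.31, 3.50, 3.35 and 3.19 FPKM, were all below the lowest vehicle library at 3.67 FPKM, but the call was lost without vehicle library 1 or 4 or L-ala library 1 (0.0526, 0.0624 and 0.0527). Emcn, the endomucin of capillary and venous endothelium, did not pass: it stood at 44.8 ± 9.10, 34.2 ± 11.5 and 29.5 ± 4.46 FPKM in vehicle, L-ala and D-ala (-0.41 and -0.57, limma adjusted p = 0.181 and 0.0823). L-ala replicate 3, at 49.4 FPKM, was higher than 3 of the 5 vehicle libraries. Esam, Cldn5 (the endothelial tight junction claudin), Icam2 and Rasip1 (a regulator of vessel lumen formation) also did not pass under either isomer, with fold changes of 0.00 to -0.24 under L-ala and -0.04 to -0.28 under D-ala.

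Sox18 and Erg had the largest falls under L-ala among the 30. Sox18 (chr2:181669836-181671640, minus strand), a SOXF factor of vessel and lymphatic development, stood at 6.24, 4.6, 3.12, 6.12 and 4.28 FPKM in vehicle, 1.88, 1.65, 2.21, 1.6 and 1.18 in L-ala, and 2.08, 1.37, 4.13, 3.40 and 2.84 FPKM in D-ala libraries. The L-ala libraries were all below the vehicle libraries, and D-ala replicates 3 and 4 overlapped vehicle. The means were 4.87 ± 1.31, 1.7 ± 0.379 and 2.77 ± 1.08 FPKM in vehicle, L-ala and D-ala (SD, n = 5 each). On the fitted FPKM + 1 scale Sox18 was at 46.6% of vehicle under L-ala (-1.10, SE 0.19, limma adjusted p = 0.00566), a call that held without any single library, and at 63.2% under D-ala (-0.66, SE 0.19, limma adjusted p = 0.0379). The D-ala call was lost without any 1 of vehicle libraries 1, 2, 4 and 5 and D-ala libraries 1, 2 and 5 (0.0524 to 0.0998).

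Erg (chr16:95359169-95586593, minus strand), the ETS factor most tied to endothelial identity, stood at 2.94, 1.33, 1.65, 2.59 and 2.61 FPKM in vehicle, 0.484, 0.241, 1.46, 0.592 and 0.884 in L-ala, and 1.17, 0.597, 0.864, 1.64 and 0.975 FPKM in D-ala libraries. The groups met only at vehicle replicate 2, which L-ala replicate 3 and D-ala replicate 4 exceeded. Erg fell by 0.91 under L-ala (SE 0.19, limma adjusted p = 0.0105), with a limma adjusted p of at most 0.0385 without any single library, and by 0.65 under D-ala (SE 0.19, limma adjusted p = 0.0345), a call lost without any 1 of vehicle libraries 1, 4 and 5 and D-ala libraries 1, 2, 3 and 5 (0.0549 to 0.0881). Sox17 and Ets1 did not pass, at -0.26 and -0.44 under L-ala and -0.12 and -0.44 under D-ala. Sox7 was below the filter, at 0.739 ± 0.258, 0.318 ± 0.167 and 0.414 ± 0.191 FPKM in vehicle, L-ala and D-ala (SD, n = 5 each), and was not tested.

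Other endothelial transcription factors outside the 32 numbered 10 tested. Elk3, an ETS repressor, fell under both isomers (-0.39 and -0.42, limma adjusted p = 0.0444 and 0.028), Etv6 fell under L-ala (-0.27, 0.0237), Mef2c fell under D-ala (-0.37, 0.0293) and Ets2 rose under D-ala (0.47, 0.0115). At an unadjusted p under 0.05, 5 of the 10 were lower and 1 higher in each comparison against vehicle.

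For 15 of the 32 genes the RefSeq promoter table (GRCm38.p6) held the 250 bases before 1 or more transcript starts. Since ETS and SOXF factors were among the genes that fell, those windows were searched for 6 short motifs: CAGGAA and CCGGAA, which share the ETS core GGAA, the SOX motif ACAAT, the KLF motif CACCC, the GATA motif AGATAA and TATAAA, each on both strands. A gene with windows for several starts was counted if any of them held the motif. CAGGAA (or TTCCTG on the other strand) stood in 9 of the 15 genes, beside 28.3% of 27025 genes with such a window and 25.8% of the 8477 tested genes among them. Of the 7 genes with a window that were called under either isomer, 5 held it. Erg, among these, held it at chr16:95459349-95459598 but not in the window before its annotated start, chr16:95586594-95586843. ACAAT and CACCC each stood in 5 of these 7 too, TATAAA in 2, and CCGGAA and AGATAA in 1 each. CCGGAA stood in 2 of the 15, beside 13.6% of all genes and 25.3% of tested genes, and ACAAT in 6, beside 30.9% and 21.3%. CACCC stood in 11, beside 54.5% and 61.6%, AGATAA in 1, beside 11.4% and 7.14%, and TATAAA in 2, beside 14.3% and 8.12%. A match of so few letters is a description of the window, not a binding site. The windows of 3 genes that fell under both isomers and carry CAGGAA on either strand are printed. Kdr, which fell under L-ala, is printed as a gene without CAGGAA, though its window holds CCGGAA, as TTCCGG, and CACCC. Capitals mark CAGGAA or TTCCTG, and each line runs 5′ to 3′ on the gene's own strand.
Tek, chr4:94739039-94739288, plus strand: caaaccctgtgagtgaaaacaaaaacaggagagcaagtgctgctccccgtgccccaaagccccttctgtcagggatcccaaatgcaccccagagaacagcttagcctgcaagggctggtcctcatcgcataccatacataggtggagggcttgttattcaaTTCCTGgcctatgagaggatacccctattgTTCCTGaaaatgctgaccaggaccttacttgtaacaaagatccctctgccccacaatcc
Cd34, chr1:194938571-194938820, plus strand: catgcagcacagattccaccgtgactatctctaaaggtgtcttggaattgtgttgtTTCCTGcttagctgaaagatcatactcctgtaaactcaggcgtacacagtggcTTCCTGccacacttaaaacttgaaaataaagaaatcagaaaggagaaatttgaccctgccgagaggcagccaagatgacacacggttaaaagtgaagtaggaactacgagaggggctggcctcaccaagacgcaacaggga
Clec14a, chr12:58269259-58269508, minus strand: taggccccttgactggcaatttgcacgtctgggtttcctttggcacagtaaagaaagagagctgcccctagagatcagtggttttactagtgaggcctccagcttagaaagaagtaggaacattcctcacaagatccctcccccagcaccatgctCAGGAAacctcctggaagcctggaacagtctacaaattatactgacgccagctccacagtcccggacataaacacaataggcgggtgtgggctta
Kdr, chr5:75978456-75978705, minus strand: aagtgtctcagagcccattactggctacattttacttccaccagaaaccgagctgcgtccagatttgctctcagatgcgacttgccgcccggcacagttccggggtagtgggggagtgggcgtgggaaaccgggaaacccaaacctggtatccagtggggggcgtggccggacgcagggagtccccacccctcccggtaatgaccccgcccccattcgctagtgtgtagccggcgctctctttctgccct

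The Tek window holds the motif at 2 places, as TTCCTG, and the Cd34 window also at 2. The Clec14a window holds it at 1 place, as CAGGAA.

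Clec14a (chr12:58264720-58269290, minus strand) encodes a lectin of the endothelial surface, and Mmrn2 the matrix protein it binds. Clec14a stood at 2.70, 1.72, 1.72, 2.13 and 2.32 FPKM in vehicle, 1.16, 0.604, 1.51, 1.21 and 0.768 in L-ala, and 1.08, 0.681, 1.09, 1.56 and 1.83 FPKM in D-ala libraries. The L-ala libraries were all below vehicle, and D-ala replicate 5 overlapped. It fell by 0.61 under L-ala and by 0.48 under D-ala (SE 0.15 in each, limma adjusted p = 0.0197 and 0.0434). The L-ala call was lost without vehicle replicate 4 (0.055), and the D-ala call was lost without any 1 of vehicle libraries 1, 4 and 5, L-ala library 1 and D-ala libraries 1, 2 and 3 (0.0527 to 0.106).

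Mmrn2 fell by 0.44 under L-ala, from 3.73 ± 0.801 to 2.48 ± 0.609 FPKM (SD, n = 5 each, limma adjusted p = 0.0395), a call lost in 8 of the 15 single-library omissions, and stood at 2.67 ± 0.349 FPKM under D-ala (-0.35, limma adjusted p = 0.0862). Egfl7, a secreted endothelial matrix factor, stood at 41.1 ± 5.68, 37 ± 9.73 and 38.3 ± 4.31 FPKM and did not pass.

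Plvap (chr8:71497765-71511752, minus strand) encodes the protein of the diaphragms that span endothelial fenestrae. Its levels were 71.9, 41.6, 51.2, 58.6 and 74.4 FPKM in vehicle, 41.5, 27.9, 57.0, 47.4 and 20.8 in L-ala, and 29.3, 24.9, 30.6, 38.8 and 39.3 FPKM in D-ala libraries. The D-ala libraries were all below the vehicle libraries, and the L-ala libraries had the widest spread and overlapped. Plvap fell by 0.84 under D-ala (SE 0.25, limma adjusted p = 0.0411), the largest fold change of the 30 under that isomer, and its change under L-ala was -0.66 (0.0922). The D-ala call was lost without any 1 of vehicle libraries 1, 3, 4 and 5, L-ala library 1 and D-ala libraries 1, 2 and 3 (0.0519 to 0.0951).

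The other genes of capillary function did not pass under either isomer. Ehd3, a trafficking protein enriched in glomerular endothelium, stood at 3.87 ± 0.709, 3.76 ± 1.13 and 4.65 ± 1.19 FPKM in vehicle, L-ala and D-ala. Igfbp3 stood at 106 ± 22.5, 106 ± 42.9 and 71.4 ± 9.64 FPKM, and Gpihbp1, which carries lipoprotein lipase to the capillary surface, at 21.3 ± 6.67, 21.4 ± 6.51 and 16 ± 2.98 FPKM. The changes of Igfbp3 and Gpihbp1 were -0.06 and 0.01 under L-ala and -0.54 and -0.36 under D-ala. Nos3, the endothelial nitric oxide synthase, stood at 1.63 ± 0.146, 1.16 ± 0.340 and 1.51 ± 0.293 FPKM (-0.30 and -0.08, limma adjusted p = 0.0784 and 0.702). S1pr1, the sphingosine-1-phosphate receptor, and Ramp2, a partner of the adrenomedullin receptor, were within 0.11 of vehicle in either comparison. Vwf, the von Willebrand factor of larger vessels, was not tested, at 0.289 ± 0.0790, 0.186 ± 0.0256 and 0.204 ± 0.106 FPKM.

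Eng (endoglin) and Acvrl1 (ALK1) form the endothelial receptor for the ligands BMP9 and BMP10. Neither passed, with changes of -0.25 and -0.12 under L-ala and -0.27 and -0.10 under D-ala. Of 10 tested genes downstream or beside this receptor, 5 rose under D-ala (Smad7, Id3, Id2, Smad1 and Id1) and 2 fell (Smad5 and Smad4), while under L-ala Id1 rose and Smad5 fell. Smad7, an inhibitor of the pathway, rose under D-ala from 4.66 ± 0.681 to 9.0 ± 0.664 FPKM (0.83, limma adjusted p = 8.22e-05), and Id3 from 75.9 ± 6.05 to 147 ± 27.7 FPKM (0.93, 0.00311). These genes are expressed by many kidney cell types, and the genes of the 2 ligands, Gdf2 and Bmp10, were listed at 0 in every library.

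Between the isomers, Cdh5 was the only gene of the 30 to pass, 3.33%, beside 7.01% of all genes tested that were higher under D-ala and 6.66% that were lower. Its D-ala level exceeded its L-ala level by 0.29 (SE 0.09, 95% interval 0.11 to 0.48, limma adjusted p = 0.0381), with 3.64 ± 0.424 against 2.78 ± 0.214 FPKM (SD, n = 5 each). The lowest D-ala library, replicate 1 at 3.0 FPKM, was below the highest L-ala library at 3.09 FPKM. The call was lost without any 1 of L-ala libraries 1, 2 and 4 and D-ala libraries 2 to 5 (0.0532 to 0.0927). Kdr and Sox18 had differences of 0.45 (interval 0.06 to 0.83) and 0.44 (interval 0.03 to 0.85) and did not pass (limma adjusted p = 0.111 and 0.136). For Tek the difference was 0.00 (interval -0.36 to 0.35), for Pecam1 0.07 (interval -0.25 to 0.40) and for Plvap -0.18 (interval -0.71 to 0.34), and these intervals hold differences of either sign. The median over the 30 was 0.0399 and changed sign with single libraries, being -0.0206 without L-ala replicate 2 and -0.0527 without L-ala replicate 5 but 0.129 without L-ala replicate 3. It was -0.0089 with a trend on transcript length removed and -0.00155 with quantile normalization. At an unadjusted p under 0.05, 4 of the 30 were higher and 0 lower under D-ala, beside 14.4% of all genes higher and 16.4% lower. Because doses are not given, the difference compares these libraries and not the isomers at a matched dose.

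**Figure D3:**
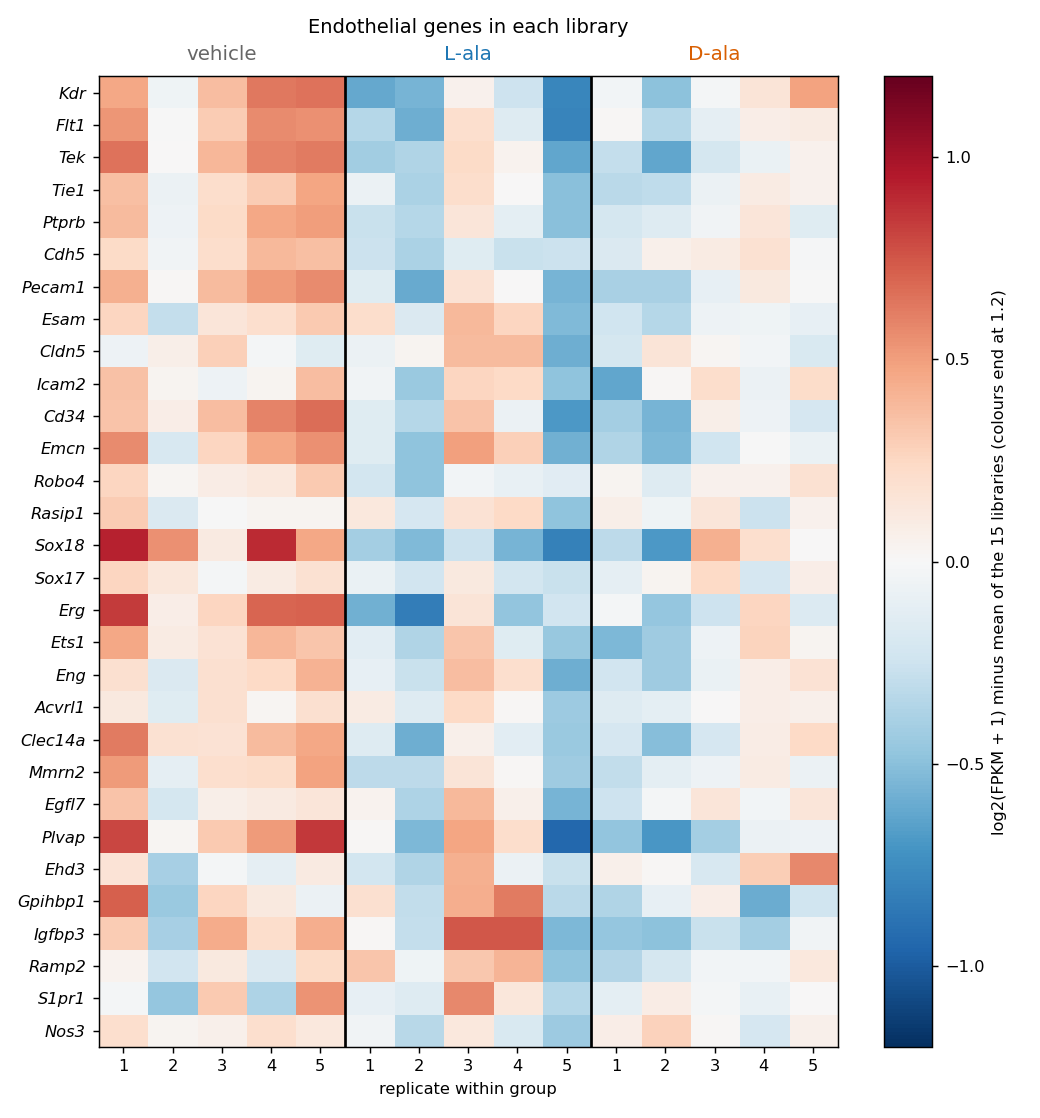
Each of the 30 tested endothelial genes in each of the 15 libraries, shown as log2(FPKM + 1) minus the gene's mean over all libraries. Vehicle replicate 2 is low for most genes within vehicle, L-ala replicate 3 is high and L-ala replicate 5 low within L-ala.

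Other pan-endothelial genes were read from a list of 17 tested genes outside the 32. Under L-ala 3 fell (Gpr182, Eltd1 and Gpr116) and 1 rose (Apold1), with a median of -0.172. Under D-ala 3 fell (Gpr182, Eltd1 and Tm4sf1) and 0 rose, with a median of -0.134, and 2 were higher and 4 lower at an unadjusted p under 0.05. Gpr182, an atypical chemokine receptor of endothelium, went from 2.22 ± 0.47 FPKM to 1.08 ± 0.368 under L-ala and 1.08 ± 0.212 under D-ala. Apold1, an early response gene of endothelium, went from 1.44 ± 0.772 to 3.95 ± 0.620 FPKM under L-ala (1.06, limma adjusted p = 0.00351).

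In the list of endothelial junction and matrix genes, 13 were tested. Jam2, a junctional adhesion molecule, fell under both isomers from 1.55 ± 0.176 FPKM to 0.670 ± 0.254 under L-ala (-0.62, limma adjusted p = 0.00305) and 0.947 ± 0.151 under D-ala (-0.39, 0.0176). Tjp1 and Ocln, tight junction genes that tubule cells also express, fell under L-ala (-0.31 and -0.42, limma adjusted p = 0.0221 and 0.0234). No gene of this list rose in limma's test against vehicle, and at an unadjusted p under 0.05 there was 1 higher under D-ala and 0 under L-ala.

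Of 10 tested genes of endothelial activation and adhesion, many of them induced in other cells too, 4 rose under L-ala, 0 fell in limma's test (1 lower at an unadjusted p under 0.05) and 6 did not pass. The 4 were the chemokine genes Cxcl1 and Cxcl2 and the NF-kappaB inhibitor genes Tnfaip3 and Nfkbia. The adhesion genes Icam1 and Vcam1 were not among them (0.57 and -0.23, limma adjusted p = 0.144 and 0.168). Cxcl1, a neutrophil-attracting chemokine, rose from 1.27 ± 0.782 to 69.9 ± 19.2 FPKM (5.0, limma adjusted p = 9.54e-04), and to 24.9 ± 18.4 FPKM under D-ala (3.13, 0.00453). Vcam1, the adhesion molecule for leukocytes, fell under D-ala from 1.81 ± 0.358 to 1.04 ± 0.164 FPKM (-0.46, limma adjusted p = 0.0127). Of 7 flow-responsive genes, Klf2 rose under L-ala from 6.77 ± 2.67 to 12.4 ± 3.88 FPKM (0.80, limma adjusted p = 0.0395) and Thbd, thrombomodulin, fell under D-ala from 5.67 ± 0.878 to 4.06 ± 0.296 FPKM (-0.39, 0.0498). Of 8 Notch pathway genes, Hes1 rose under both isomers (0.59 and 0.75, limma adjusted p = 0.0435 and 0.0129) and Dll1 rose under D-ala (0.46, 0.0179).

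Transcript length moved with the L-ala contrast. Length was taken as the deposited count-like score per FPKM, in about kb, for 11722 of the tested genes. The median fold change under L-ala ran from 0.163 in the shortest of 5 equal length classes to -0.0979 in the longest, and under D-ala from 0.0144 to -0.0208. Of the 6 endothelial genes in the longest class, 5 fell under L-ala, beside 9.59% of all genes there, and of the 6 in the shortest class 0 fell in limma's test, beside 0.768%. In the longest class 2 of 6 fell under D-ala, beside 6.78% of all genes there. The 13 genes called under either isomer had a median length of 3.91 kb, and the 17 called under neither one of 2.96 kb. With the trend on length removed within each library, 7 genes fell under L-ala (Pecam1, Cdh5, Kdr, Flt1, Sox18, Erg and Cd34), beside 2.72% of all genes. The L-ala calls of Tek, Robo4, Ptprb, Mmrn2 and Clec14a were lost (limma adjusted p = 0.0576, 0.0644, 0.141, 0.101 and 0.0507). Their fold changes were then -0.60, -0.31, -0.36, -0.39 and -0.54, against -0.68, -0.35, -0.52, -0.44 and -0.61 with the trend kept. Under D-ala 7 fell with the trend removed, beside 7.11% of all genes, with Clec14a lost (0.0526) and Emcn gained (0.0479).

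**Figure D4:**
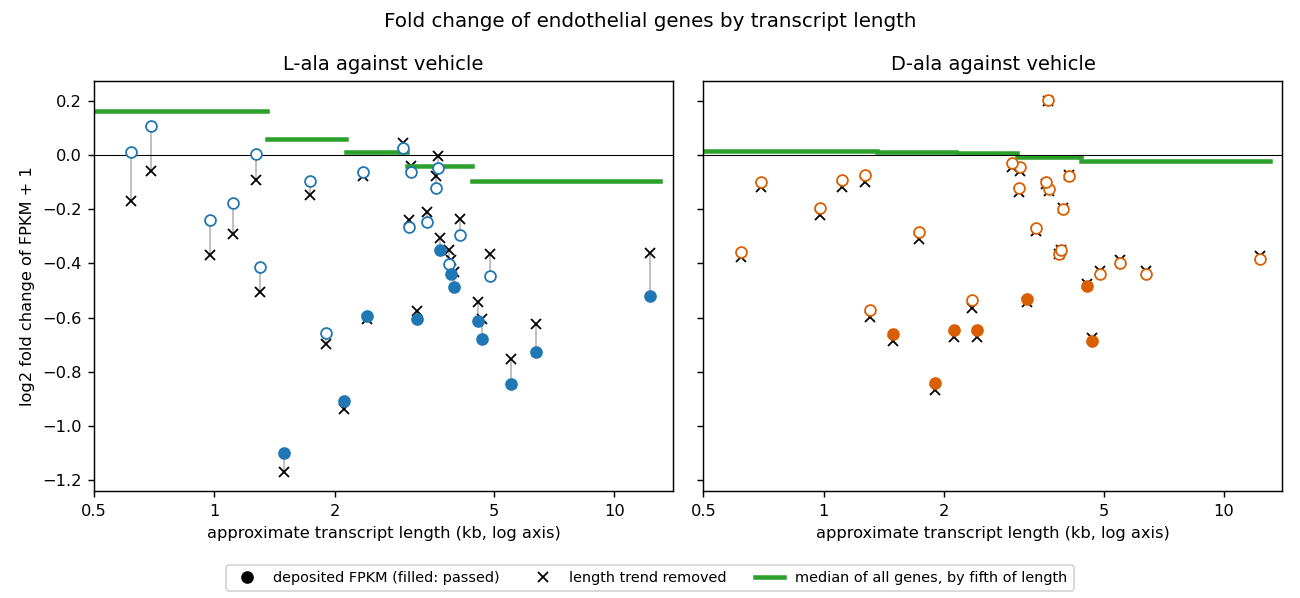
Fold change against vehicle by transcript length in kb on a log axis, for the 30 tested endothelial genes under each isomer. Circles are the deposited values, filled where the test was passed, crosses are the values with the length trend removed, and bars are the median of all tested genes in each of 5 length classes. Under L-ala that median falls from 0.163 to -0.0979, and most endothelial genes lie below it.

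Markers of other cell types are given beside these results. Summed over 6 neutrophil markers, L-ala libraries stood at 13.1 to 35 FPKM, vehicle at 0.676 to 7.72 and D-ala at 2.39 to 11.3, with Mpo listed at 0 in all, and 2 of 2 tested markers rose under L-ala (S100a8 and S100a9). Red blood cell markers summed to 309 to 787 FPKM in L-ala, 53.5 to 299 in vehicle and 75.0 to 507 in D-ala libraries. Of 7 red blood cell markers tested, 0 passed against vehicle under either isomer, with 6 higher under L-ala at an unadjusted p under 0.05. Podocyte markers, which share the glomerulus with endothelium, summed to 74.2 to 111 FPKM in vehicle, 85.6 to 111 in L-ala and 110 to 151 in D-ala. Pericyte, mesangial and fibroblast markers summed to 40 to 60.7 FPKM in vehicle, 32.3 to 56.8 in L-ala and 33.6 to 43.2 in D-ala, with 1 of 11 falling under L-ala and 2 under D-ala. Macrophage and dendritic cell markers summed to 210 to 361, 177 to 291 and 148 to 234 FPKM in the same order, with 1 of 8 falling under L-ala and 4 under D-ala. Proximal tubule markers summed to 7060 to 8410 FPKM in vehicle, 8220 to 9630 in L-ala and 8910 to 9740 in D-ala. Loop and distal tubule markers summed to 2240 to 2530 FPKM in vehicle, 1750 to 2130 in L-ala and 1860 to 2450 in D-ala, so all L-ala libraries lay below vehicle, with 1 of 9 tested falling under L-ala (Umod). Umod was the largest part of this sum, at 1460 ± 97.4 FPKM in vehicle and 1100 ± 182 under L-ala. The median fold change of the 9 under L-ala was 0.0944, with 3 higher and 2 lower at an unadjusted p under 0.05. Platelet markers summed to 3.34 to 3.63 FPKM in vehicle, 3.87 to 6.54 in L-ala and 3.27 to 5.04 in D-ala, all L-ala libraries lying above vehicle. Only 1 of the 7 platelet markers, Itga2b, reached the filter and was tested. It did not pass under L-ala (0.18, limma adjusted p = 0.095) or D-ala (0.09, 0.47). Smooth muscle and renin, lymphocyte and adipocyte marker sums overlapped between vehicle and each treated group. Of 5 smooth muscle and renin markers tested, 1 rose under D-ala and 0 passed under L-ala. It was Ren1, which went from 29.6 ± 5.74 to 51.7 ± 13.5 FPKM under D-ala (0.77, limma adjusted p = 0.0257). The part of these markers in the endothelial results was not tested.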

How the data were processed

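Kidney messenger RNA was measured in 15 libraries of wild-type mice, 5 per group. Per the labels' protocols, TRIzol RNA went into a stranded TruSeq messenger RNA kit. Build mm10 and the tools SAMtools 0.1.19, Bowtie2 2.2.3 and TopHat2 2.0.13 are named per the submitters' processing notes; no quantifier, annotation or strand setting is given in the sources used here. Tests used the FPKM values deposited by the authors. Another deposited column, titled count in the header, holds rescaled whole numbers, so it was treated as a score and used only for gene length and a depth estimate. A further log-scale column was not used. FPKM carry no counting interval, so precision is the spread between libraries.

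Genes reaching 1 FPKM in 5 libraries entered the test as log2(FPKM + 1), with 1 mean per group over all 15 libraries, in limma 3.58.1 (R 4.3.3) with trended, robust empirical Bayes moderation. Adjusted p-values are Benjamini-Hochberg over 11781 genes, calls are at 0.05 and intervals at 95%. The fit was tested on simulated data. Replicate numbers follow accession order and pair nothing. All 32 members are reported, with full values for called members and for Pecam1, Cdh5, Kdr, Emcn, Erg and Nos3; of other lists, at most 5 called genes per comparison are named. The members, lists and rules were chosen with earlier results of these data known. Coordinates are GENCODE M21 on GRCm38, the assembly of mm10, and promoter sequences are from RefSeq. Alternatives were another pseudocount, no filter or a stricter one, other scalings, no trend, 2 groups only, removal of the length trend and leaving out each library.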

Additional observations from a re-analysis of the deposited data

How the results depend on the processing

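No paired analysis was possible because replicate numbers follow accession order and pair no libraries. Against vehicle, no called endothelial gene changed sign under any alternative run. Left-out libraries moved the endothelial count between 5 and 15 for L-ala (12 as reported), 1 and 12 for D-ala (7) and 0 and 2 for D-ala against L-ala (1). Over all genes they moved it between 321 and 2580 (1297), 812 and 1592 (1349) and 770 and 2761 (1611). The endothelial L-ala count was 7 with the length trend removed. The D-ala count was 3 without a filter on low values, and 14 with vehicle replicate 2 and L-ala replicate 5 both left out. The L-ala calls of Robo4, Cd34 and Mmrn2 were lost with quantile normalization (limma adjusted p = 0.0797, 0.0647 and 0.105) and with only the 2 groups compared (0.0517, 0.063 and 0.0779), and those of Cd34 and Mmrn2 without a filter (0.0534 and 0.0591). The D-ala calls of Pecam1, Sox18, Erg and Clec14a were lost without a filter (0.0531, 0.0565, 0.0538 and 0.0644), that of Sox18 with the 2 groups only (0.0683), those of Erg and Clec14a with pseudocount 0.1 (0.0687 and 0.0596) and that of Erg with quantile normalization (0.0504). The D-ala against L-ala count was 0 with the length trend removed, without a filter or with quantile normalization, and 4 with both libraries left out, 1 higher and 3 lower. Over all genes, L-ala called 734 with the length trend removed, 603 with only the 2 groups compared and 575 with quantile normalization, and D-ala against L-ala called 975 with 2 groups and 2747 with both libraries left out. Under quantile normalization the all-gene split was 234 higher and 341 lower for L-ala (763 and 534 as reported) and 740 and 836 for D-ala (769 and 580). The cause of these moves was not tested.

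Values that changed sign were all small. Under L-ala, Cldn5 (0.00 as reported) was -0.0927 with the length trend removed and -0.00307 with pseudocount 0.1, Ehd3 was 0.0155 with quantile normalization, Ramp2 was -0.0612 with the length trend removed, and Gpihbp1 was -0.169 with the length trend removed, -0.0374 with quantile normalization and -0.0152 with both libraries left out. For D-ala against L-ala, Pecam1 was -0.00944 with both libraries left out and Ptprb -0.011 with the length trend removed. Over left-out libraries the L-ala ranges were -0.0871 to 0.156 for Cldn5, -0.178 to 0.0175 for Ehd3, -0.197 to 0.0445 for Esam, -0.127 to 0.161 for Gpihbp1, -0.215 to 0.106 for Igfbp3, -0.131 to 0.0487 for Rasip1 and -0.114 to 0.16 for S1pr1. The D-ala ranges were -0.0984 to 0.0223 for Rasip1 and -0.145 to 0.106 for S1pr1, and the D-ala against L-ala ranges were -0.178 to 0.0792 for Cd34, -0.0211 to 0.173 for Pecam1 and -0.105 to 0.109 for Tek. Levels near 1 FPKM, such as those of Erg, Nos3 and Sox17, are compressed by the pseudocount.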

Other observations

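Genes of single vessel segments were read from 5 further lists. Of 6 arterial genes tested, Cxcl12, a chemokine of arterial and stromal cells, fell under both isomers, from 55.2 ± 8.93 FPKM in vehicle to 35.7 ± 6.73 under L-ala and 33 ± 6.88 under D-ala (SD, n = 5 each; limma adjusted p = 0.0234 and 0.00663). Of 4 venous genes, Nrp2 fell under both isomers, Ephb4 under L-ala (-0.26, limma adjusted p = 0.0102) and Aplnr under D-ala (-0.51, 0.0139). The D-ala level of Ephb4, the venous ephrin receptor, exceeded its L-ala level by 0.26 (limma adjusted p = 0.00583). Neither of 2 tested lymphatic genes passed, and 0 had an unadjusted p under 0.05.

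Of 9 glomerular capillary genes, Ehd4 fell under both isomers (-0.60 under L-ala and -0.50 under D-ala, limma adjusted p = 0.0219 and 0.0387). Of 8 peritubular capillary genes, Ppap2b, a lipid phosphatase, fell under both (-0.80 and -0.56, 0.00325 and 0.011), Igfbp5 under L-ala (-0.49, 0.036) and Ly6c1 under D-ala (-0.52, 0.0383), while Ly6a, which tubule cells can also express, rose under L-ala from 591 ± 25.6 to 783 ± 65.3 FPKM (0.40, 0.00298). The median fold change was -0.131 and -0.222 for the glomerular and peritubular lists under L-ala and -0.00854 and -0.28 under D-ala. A difference between the segments was not tested.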
